A study of Terfezia claveryi
Helianthemum almeriense and Terfezia claveryi with 9 samples.

Results

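In the desert truffle Terfezia claveryi, 89 of 12765 fungal gene models were abundant in the roots of well-watered host plants and at least 6 times lower both in cultured mycelium and in the roots of drought-stressed plants. The members were chosen by their measured levels in the same 9 libraries. CPM, the total gene reads of a model per 1000000 total gene reads of its library, had to average at least 20 in the 3 well-watered libraries, to be at least 6 times the mean of the 3 cultures and of the 3 drought libraries, and to be higher in the lowest well-watered library than in the highest of the other 6 libraries. That these genes stand highest in well-watered roots is therefore the selection and not a finding. What follows describes how large they are, how they differ among the replicates, what remains of them under drought and in culture, and how their gene models are built.

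Terfezia claveryi is an ascomycete that fruits underground and lives as a mycorrhizal partner of rockroses, shrubs of dry Mediterranean soils. In a mycorrhiza the fungus grows around and into root tissue, gives the plant water and mineral nutrients, and receives sugars. Fungal genes switched on in such tissue typically include secreted effector proteins, cell wall enzymes and membrane transporters. Which of these classes the 89 models belong to cannot be said here, because the files give Tercla1 catalogue numbers without gene names, products, positions or sequences.

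The cultures were strain T7, a single strain, shaken at 75 rpm in the dark at 23 °C for 3 months in MMNo medium. Both root groups were secondary and tertiary roots of Helianthemum almeriense plants, inoculated with a solution of truffle spores 3 months before watering was changed and carrying fungus from those spores rather than strain T7. Uninoculated plants were not analysed here. Well-watered plants had soil moisture kept above 75%, and drought-stressed plants had it lowered to 40% until the shoot water potential fell under -2 MPa. Each group has 3 libraries, numbered as replicates in the labels. Strain, growth medium and the presence of a host differ together between cultures and roots, so their parts in a difference cannot be told apart. RNA was taken from 100 mg of tissue, and the root samples mix plant and fungus. Total gene reads there are the reads assigned to the fungal models, called fungal reads below. Whether any of them came from another source was not tested. A CPM in roots is a share of these reads: fewer fungal cells that express a gene and less of its RNA per cell cannot be told apart. The tissue labels could not be checked against marker genes, since no model carries a name.

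Fungal totals ran from 869998 to 1635015 reads in well-watered roots, from 3493361 to 5470044 in drought roots and from 15855363 to 31854784 in cultures. At the entry level of 20 CPM this is 17.4 to 32.7 reads in a well-watered library. Every member was counted in every well-watered library, with at least 9 reads in each, and with 80 to 35658 reads over the 3 libraries together. Well-watered replicate 1 and drought replicate 2 stood apart from the other libraries of their groups, over all genes as well as over the members. Chi-square per gene model over all genes was 27.9 and 22.9 for the pairs with well-watered replicate 1 and 77.2 and 73.4 for those with drought replicate 2, against 10.9 between drought replicates 1 and 3. Culture replicate 1 stood apart as well, at 66.1 and 57.9 against 14.4 between culture replicates 2 and 3. Over the members, its median log2 differences were 0.36 and 0.34, against 0.15 between culture replicates 2 and 3 (0.5 CPM added). Well-watered replicates 2 and 3 were close to each other, but their counts differed by more than counting noise (chi-square of 4.14 per gene model over 7035 models, where counting noise alone gives about 1), so they were kept as separate samples.

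The share of fungal reads held by the members follows in part from the rule, which chose them as high in well-watered roots and low elsewhere. They held 3.70% of total gene reads in well-watered replicate 1, 5.39% in replicate 2 and 5.53% in replicate 3, a mean of 4.87 ± 1.02% (SD, n = 3). In drought roots they held 0.423%, 0.277% and 0.450% in replicates 1, 2 and 3 (0.383 ± 0.0927%), and in cultures 0.310 ± 0.00631% (SD, n = 3 each). The share rests on few genes: the most abundant member alone made up 19.3% of the summed mean CPM of the set, the first 5 made up 49.4% and the first 10 made up 66.5%. Under the mirror of the same rule, 134 models were high only in drought roots, where they took 9.78 ± 0.550% of reads, and 149 were high only in cultures, where they took 3.87 ± 0.109% (SD, n = 3 each).

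**Figure D1:**
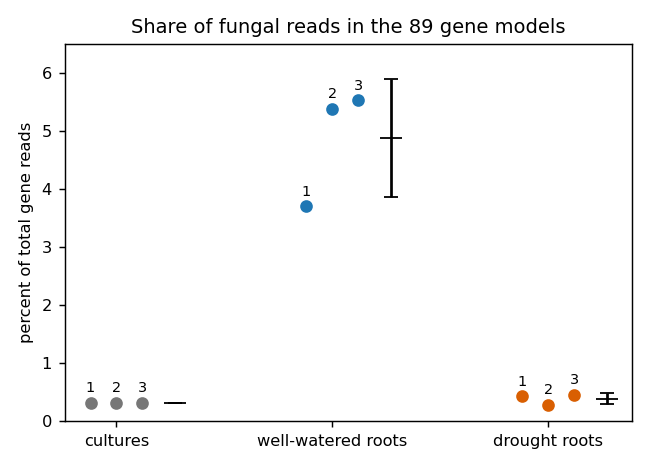
Percent of total gene reads of each library that fell on the 89 gene models, by group, with the replicate number above each point; black bars give the mean ± SD of the 3 libraries. Well-watered replicate 1 lies at 3.70%, below replicates 2 and 3 at 5.39% and 5.53%, and all drought and culture libraries lie below 0.5%.

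The most abundant member was jgi|Tercla1|1273874|, a model of 3189 bases. It stood at 5126, 11498 and 11517 CPM in well-watered replicates 1, 2 and 3, at 672, 390 and 720 CPM in drought replicates 1, 2 and 3, and at 1303, 1184 and 1232 CPM in the cultures. Every well-watered library was thus far above the rest, yet replicate 1 reached less than 50% of the level of the other two. Mean CPM was 9381 ± 3684 under watering, 594 ± 178 under drought and 1240 ± 60.03 in culture (SD, n = 3 each), and the fold of means was 15.8 over drought roots and 7.57 over cultures. On the scale per gene length it was also the highest of the 89, at 2942 ± 1155 RPKM, and ranked number 19 of all models in well-watered roots.

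The next was jgi|Tercla1|815395|, a model of 3973 bases. Its levels were 1589, 5572 and 6064 CPM in well-watered replicates 1, 2 and 3. In drought roots they were 144, 242 and 158 CPM, and in cultures 467, 315 and 304 CPM. Well-watered replicate 1 was again the lowest of its group, here by more than 3-fold, while drought replicate 2 was the highest of its own. The fold of means was 24.3 over drought roots and 12.2 over cultures.

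Levels of the other members reached down to the entry limit. Mean CPM in well-watered roots had a median of 117 (middle 50% of members 54.2 to 330) and a lowest value of 21.3; 13 members exceeded 1000 CPM and 37 lay below 100. Per gene length the median was 96.2 RPKM, with a range from 5.90 to 2942 RPKM. Of the 100 most abundant fungal models in well-watered roots 12 were members by CPM and 7 by RPKM. A model of 1530 bases came second per gene length, at 2415 ± 1133 RPKM, with 5694, 2789 and 2602 CPM in well-watered replicates 1, 2 and 3 against 1.83 to 3.47 CPM in cultures and 192 to 237 CPM in drought roots. For this gene, in contrast to those above, well-watered replicate 1 was the highest library.

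**Figure D2:**
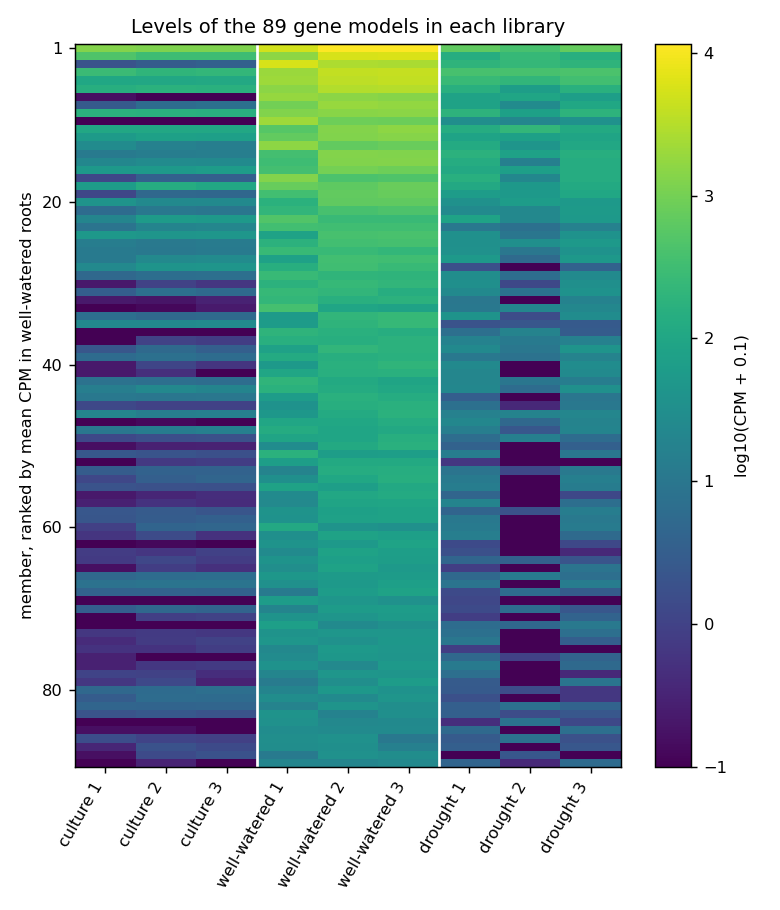
Level of each of the 89 gene models (rows, ranked by mean CPM in well-watered roots) in each of the 9 libraries (columns), as log10(CPM + 0.1). The well-watered columns are brightest by construction; drought replicate 2 shows dark cells, 30 of them at 0 reads, where drought replicates 1 and 3 mostly hold reads.

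The well-watered libraries did not agree on the levels of these genes. Well-watered replicate 1 was the lowest of the 3 for 57 of the 89 members and the highest for 23, leaving 9 in between. Among all 5609 models that averaged 20 CPM or more under watering, it was the lowest for 33.2% and the highest for 48.8%, so the members lean to the other side. Replicates 2 and 3 differed by a median of 0.19 on the log2 scale over the members, against 1.03 between replicates 1 and 2 and 1.05 between replicates 1 and 3. For all models at 20 CPM or more the corresponding medians were 0.28, 0.52 and 0.56. The coefficient of variation of a member's CPM over the 3 libraries had a median of 37.9%, against 26.97% for all models at that level, and ran from 2.47% to 90.5%. The rule used the mean and the lowest value of these same 3 libraries, so the comparisons with all models are not independent of it.

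The spread had opposite signs in different genes. In the 57 members lowest in replicate 1, the median log2 difference of replicate 1 from the mean of replicates 2 and 3 was -1.15, and 36 of them were at least 2-fold lower there. The extreme was a model of 2728 bases at 18.0 CPM in replicate 1 and 139 CPM in both others. In the 23 members highest in replicate 1 the median difference was 0.63, and 8 were at least 2-fold higher, up to a model of 1630 bases at 375, 92.4 and 82.8 CPM in replicates 1, 2 and 3. Only 44.9% of the reads of that last model were unique to it, so its level is uncertain. At the steady end, a model of 594 bases stood at 338, 330 and 322 CPM, and a model of 10417 bases, the longest of the set, at 764, 630 and 794 CPM.

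**Figure D3:**
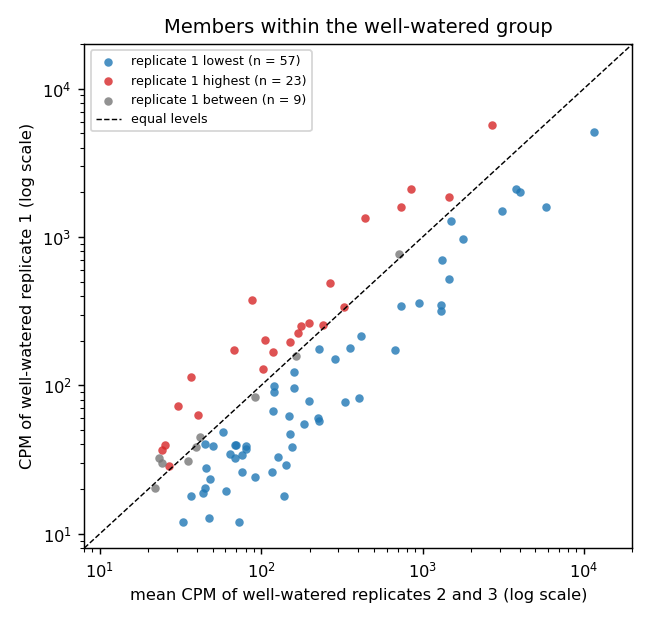
CPM of each member in well-watered replicate 1 against the mean of well-watered replicates 2 and 3, both on log axes, with the line of equal levels. The 57 members lowest in replicate 1 lie below the line and the 23 highest in it lie above, with 9 in between.

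Because the rule saw all 3 well-watered libraries, it was also applied with 1 of them left out, and the omitted library was then read as one that had played no part in the choice. Without well-watered replicate 2, 86 models met the rule, and in replicate 2 itself 71 of them were at least 6 times both the culture and the drought mean. Without replicate 3, 81 models met it, and 67 of them did so in replicate 3. Without replicate 1, 105 models met it, but in replicate 1 only 51 of them (48.6%) reached both folds. The weaker condition, lying above all 6 culture and drought libraries, was met in the omitted library by 85 of 86, 80 of 81 and 95 of 105 models for replicates 2, 3 and 1. Of all models at 20 CPM or more in the remaining well-watered libraries, 22.8% to 23.9% lay above all 6 in the omitted one. The 6 culture and drought libraries were the same ones by which the models had been chosen as low, so these counts are not independent of the rule. No test was made on them.

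Under drought most of these genes were low but read. Their mean CPM in drought roots had a median of 9.18 and ran from 0.183 to 594; 7 members were under 1 CPM and 11 at 100 CPM or more. None was without reads in all 3 drought libraries. From pooled reads, the ratio of well-watered to drought roots had a median of 10.2 over the members and was at least 100 for 4 of them. In edgeR's quasi-likelihood test, 83 of the 89 were called lower in drought than in well-watered roots at an adjusted p under 0.05, where 10.2% of all 8029 models tested were called lower; 0 were called higher, at an adjusted or an unadjusted p under 0.05 and by DESeq2 or limma alike, against 9.53% of all models in edgeR. The rule used this contrast, so the count is no further evidence.

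The lowest residue was that of jgi|Tercla1|1205029|, a model of 618 bases. It had 67.5, 118 and 117 CPM in well-watered replicates 1, 2 and 3, and 3, 0 and 0 reads in drought replicates 1, 2 and 3. Cultures held 0, 0.596 and 0.733 CPM. The well-watered libraries pooled held 385 reads, a ratio of 418 over drought roots with an exact 95% binomial interval from 142 to 2036, which covers counting error only. Without drought replicate 1, which held all 3 reads, the level was at least 235-fold higher in well-watered roots, with 0 drought reads set at a floor of 3 counts over the group.

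Among the members, the next largest lower limit of this interval belonged to jgi|Tercla1|1089175|, a model of 867 bases. Its levels were 151, 320 and 254 CPM in well-watered replicates 1, 2 and 3, and 1.65, 0 and 3.72 CPM in drought replicates 1, 2 and 3. In cultures it was at 24.2, 42.4 and 43.5 CPM, so all drought libraries lay below all cultures. Pooled reads gave a ratio of 140 over drought roots (exact 95% interval 92.0 to 225). With single libraries left out, the ratio ran from 100 without drought replicate 2 to 247 without drought replicate 3, which held 13 of the 22 drought reads.

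Drought replicate 2 carried less of most members than the other drought libraries. It was the lowest of the 3 for 67 of 89 members (75.3%), against 39.1% of all models at 20 CPM or more in drought roots and 45.1% of those at 1 to 20 CPM. Of the members, 30 had no read in drought replicate 2, against 1 in replicate 1 and 4 in replicate 3. Missing reads in replicate 2 were not limited to the members: of all 2892 models at 1 to 20 CPM in drought roots, 22.1% had none there, against 5.33% in replicate 1 and 5.15% in replicate 3. Of the 50 members at that level, 48% had none in replicate 2. The rule set a limit on the drought mean, so a model low in replicate 2 met it more easily. The excess of the members over all models is therefore not independent of the rule. Drought replicate 2 had about as many fungal reads as replicate 3, 3543782 against 3493361, and its floor of 3 counts was 0.847 CPM. The 30 models had medians of 6.12 CPM in replicate 1 and 6.01 CPM in replicate 3, and 18 of them had at least 10 reads in both.

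A model of 2155 bases, for example, stood at 24.7, 0 and 29.2 CPM in drought replicates 1, 2 and 3. A model of 1104 bases had 20.5, 0 and 26.6 CPM. Drought replicates 1 and 3 differed by a median of 0.42 on the log2 scale over the 89 members, with 0.5 CPM added, while replicate 2 differed from them by 1.77 and 1.73. Replicate 2 also stood apart over all models, with medians of 0.50 and 0.55 against 0.22 between replicates 1 and 3 at 20 CPM or more, and of 1.32 and 1.38 against 0.67 at 1 to 20 CPM. The reverse also occurred: 14 members were highest in drought replicate 2, among them a model of 1008 bases at 138, 225 and 119 CPM. Drought replicate 2 was low in many but not all members, and the part of that library in the residual drought levels was not tested beyond the values without it, in which 81 models met the rule and 73 of the 89 were among them.

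**Figure D4:**
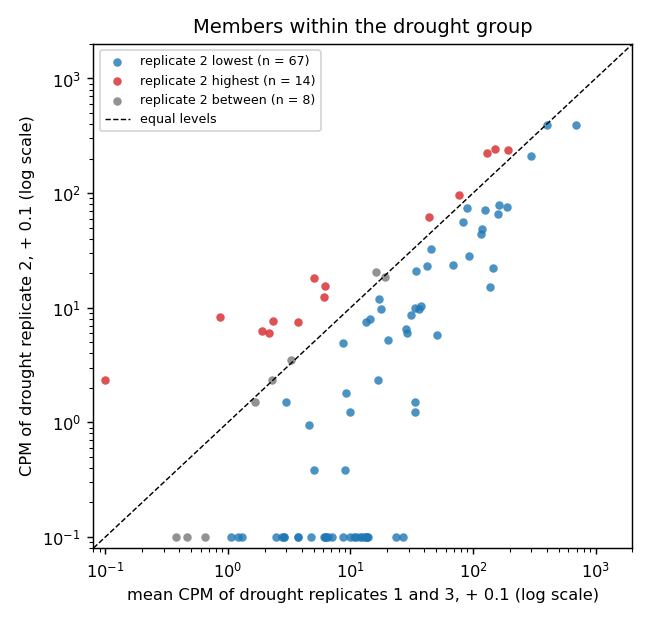
CPM of each member in drought replicate 2 against the mean of drought replicates 1 and 3, with 0.1 CPM added, on log axes; the row of points at the bottom edge are the members without a read in replicate 2. The 67 members lowest in replicate 2 lie mostly well below the line of equal levels, and 14 members are highest in it.

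In cultures the members covered the whole range from silence to high expression. Mean culture CPM was under 1 for 33 members, 1 to 10 for 30, 10 to 100 for 18 and at least 100 for 8, with a median of 2.88 and a maximum of 1240. The pooled ratio of well-watered roots to cultures had a median of 37.5, with models without culture reads set at their lower bound, and was at least 100 for 27 members. All 89 were called higher in well-watered roots than in cultures by edgeR (adjusted p under 0.05), where 24.4% of 8919 models tested were called higher. This contrast was also used by the rule.

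No culture read was found for 5 members, of 3028, 903, 556, 932 and 396 bases, below a floor of 0.0386 CPM over the cultures. Their well-watered means were 1261 ± 720, 166 ± 28.0, 48.2 ± 13.8, 44.7 ± 24.6 and 28.4 ± 7.27 CPM, in that order (SD, n = 3 each). All 5 had reads under drought, at means of 0.366 to 29.7 CPM. Whether strain T7 carries these 5 genes was not tested, as there is no genome of it here. At the other end, the 8 members with at least 100 CPM in cultures were also among the members above 90 CPM in drought roots, so that their lead in well-watered roots, of 7.12- to 24.3-fold over drought, sat on a high base.

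The rule never set drought roots against cultures, although it kept both below the well-watered level. Of the 89 members 69 had enough reads for that test, and the 20 others had culture means of at most 0.741 CPM and drought means of at most 15.7 CPM. Of the 69, 25 were higher in drought roots than in cultures, 4 were lower and 40 did not pass at an adjusted p of 0.05 in edgeR. Of all 9001 models tested, 21.4% were called higher and 21.8% lower in drought roots, against 36.2% and 5.80% of the members tested. The median log2 fold change was 1.32 over the 69 members and -0.05 over all models. A model low in both groups passed the read filter only if it was high enough in 1 of them, so these shares do not speak for all 89. By non-overlap alone, without a filter, every drought library lay above every culture for 30 members (33.7%) and below for 8 (8.99%), against 22.3% and 30.7% of the 11172 models with a read in either group. Among the 2119 models with every well-watered library above every culture, as holds for all members, 7.6% had every drought library below, close to the members' 8.99%. Unlike the members, these models were not held to the rule's limit on the drought mean. Neither the share with every drought library above nor the shares called higher were computed among these 2119 models. The excess of the members on that side is thus set only against all models, which were not chosen as high in roots. Without drought replicate 2, 53 of 85 members tested (62.4%) were called higher and 6 (7.06%) lower. Calls rose over the whole table in that fit, to 28.6% higher and 31.6% lower of 9466 models.

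The largest fitted rise from cultures to drought roots belonged to jgi|Tercla1|1176131|, a model of 2081 bases, followed by jgi|Tercla1|1176117|, of 3028 bases. The former stood at 82.3, 95.4 and 70.1 CPM in drought replicates 1, 2 and 3, with 1 read in all cultures, and at 1846, 1512 and 1391 CPM in well-watered replicates 1, 2 and 3. The latter stood at 31.6, 20.9 and 36.6 CPM in drought roots, with 0 reads in cultures, and at 2092, 870 and 822 CPM in well-watered roots. Neither gene overlapped between any of the 3 groups, and neither was lowest in well-watered replicate 1. The edgeR adjusted p for drought roots against cultures was 3.1e-05 for jgi|Tercla1|1176131| and 0.00033 for jgi|Tercla1|1176117|.

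Pooled reads of jgi|Tercla1|1176131| gave a ratio of 6418 for drought roots over cultures, on a single culture read (exact 95% interval 1149 to 253742). It was at least 1703-fold higher without culture replicate 1, which held that read, and the ratio was 3787 and 3941 without culture replicates 2 and 3. For jgi|Tercla1|1176117| the level was at least 777-fold higher in drought roots, or 458 and 477 without culture replicates 2 and 3, since fewer culture reads then set the floor. Well-watered over drought roots, the pooled ratio was 19.4 for the former and 42.8 for the latter, which became 28.5 without well-watered replicate 1.

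In the opposite direction, jgi|Tercla1|1089175|, described above, and jgi|Tercla1|1180392| (2380 bases) had the largest fitted falls from cultures to drought roots. The log2 fold change was -4.36 ± 0.834 (SE, edgeR adjusted p = 0.00567) for jgi|Tercla1|1089175| and -3.58 ± 0.330 (SE, edgeR adjusted p = 0.00025) for jgi|Tercla1|1180392|. The latter was at 25.6, 25.6 and 27.1 CPM in cultures, 1.83, 2.26 and 2.58 CPM in drought replicates 1, 2 and 3, and 59.97, 199 and 249 CPM in well-watered replicates 1, 2 and 3. Only 19.1% of its reads were unique to the model, so its level is uncertain.

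Both of the most abundant members were called lower in drought roots than in cultures as well. The log2 fold change was -1.06 ± 0.270 (SE, edgeR adjusted p = 0.0173) for jgi|Tercla1|1273874| and -1.03 ± 0.240 (SE, edgeR adjusted p = 0.0125) for jgi|Tercla1|815395|. The first call was lost without culture replicate 1 (log2 fold change -1.04, adjusted p = 0.0565) and without culture replicate 3 (-1.07, adjusted p = 0.0517). The second was lost in a joint fit of all 9 libraries (-1.02, adjusted p = 0.0953) and without drought replicate 1 (-0.93, adjusted p = 0.0501), all in edgeR.

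**Figure D5:**
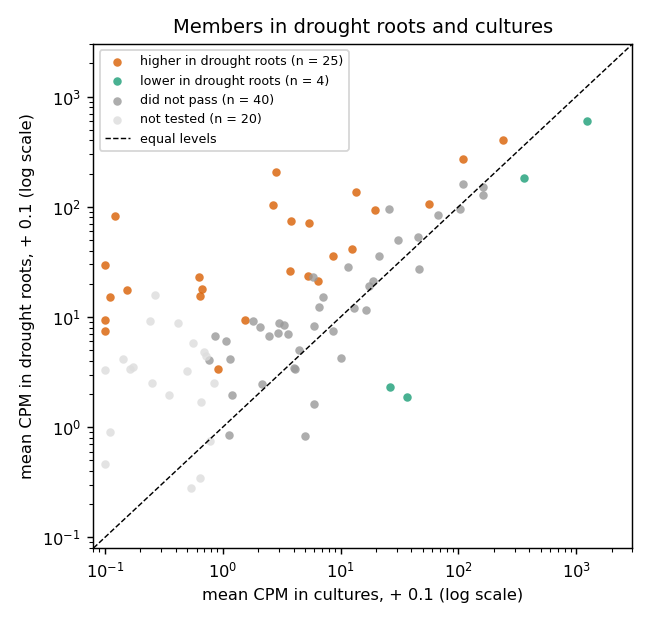
Mean CPM of each member in drought roots against its mean in cultures, with 0.1 CPM added, on log axes; colours give the edgeR call between these groups. The 25 members called higher in drought roots lie above the line of equal levels, many of them at the left with few culture reads, the 4 called lower lie below it, and the 20 not tested sit at low culture levels.

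The gene models themselves were of ordinary length. The shortest had 342 bases and the longest 10417, around a median of 1492 (middle 50% 903 to 2341), against a median of 1527 for the 5609 models at 20 CPM or more in well-watered roots and 1132 for the 11241 models with any read. None was 300 bases or shorter. The 134 models high only in drought roots had a median of 918 bases, and 10 of them were at most 300 bases. The 149 models high only in cultures had a median of 1220 bases. Of the 89 lengths 60.7% were multiples of 3, against 61.3% of all models with a read.

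Some members shared reads with other models. In 10 of the 89 members (11.2%) fewer than 50% of reads were unique to the model, against 3.67% of models at 20 CPM or more in well-watered roots, 3.73% of those high only in drought roots and 9.40% of those high only in cultures. No test was made on these shares. Of the 10, 4 had no unique read at all and fell into pairs of equal length. A pair of 1492 bases stood at 105 ± 69.4 and 86.2 ± 52.5 CPM under watering, 2.42 ± 2.11 and 1.84 ± 2.28 under drought, and 0.150 ± 0.0759 and 0.248 ± 0.120 in cultures (SD, n = 3 each). A pair of 2045 bases stood at 52.4 ± 36.1 and 47.0 ± 23.8 CPM under watering, 3.36 ± 2.36 and 3.26 ± 2.60 under drought, and 3.92 ± 0.125 and 4.01 ± 0.793 in cultures. The counts do not show which models share reads, so the levels of these 4 could not be assigned to single models. Whether each pair stands for a single expressed sequence was not tested. With unique gene reads in place of total gene reads, 80 models met the rule, all of them among the 89.

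The limits of the rule cut through a continuous range. The lowest members averaged 21.3 and 25.8 CPM under watering, and models that met all else but stood at 18.8 and 17.5 CPM were left out. At the fold over drought roots, 6.10 and 6.11 were kept, 5.90 and 5.76 were not, and 150 models failed this limit alone. At the fold over cultures, 6.09 and 6.38 were kept, 5.73 and 5.65 were not, and 45 models failed this limit alone. The requirement of no overlap was failed alone by 5 models. Of the 89, 79 had at least 2 times the level in their lowest well-watered library that they had in their highest other library, and for 9 this factor was at least 10. The highest other library was a drought library for 76 members and a culture for 13.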

How the data were processed

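The authors deposited 9 files, 1 a library, each listing 12765 gene models with their length-scaled RPKM and a pair of counts, headed unique gene reads and total gene reads. Per the submitters' processing notes, FastQC, Bowtie2 2.3.0 and SAMtools 1.7 were used, without their roles; no source used here gives the counting program, its use of strand or the annotation version. Sequencing was in pairs of 75 bases, per the series' design text; no source states if pairs were counted once. The RPKM deposited by the authors equal total gene reads per kilobase and per 1000000 total gene reads, which gave each model's length as a whole number.

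The members and lists were chosen with earlier results of these data known. CPM, SD, pooled read ratios with exact 95% Clopper-Pearson intervals and shares were computed in Python 3.11.15 (pandas 2.3.3, scipy 1.17.1). A group without reads was set at 3 counts; intervals and floors cover counting error only, since reads carry no molecular identifiers. Each pair of groups was fitted over all models with edgeR 4.0.16 in R 4.3.3 (filterByExpr, TMM, robust quasi-likelihood F test, Benjamini-Hochberg). Standard errors were derived from the F statistic. The p-values set a difference between groups against the spread between the libraries within groups. The step was also run on simulated counts. These held no library that stood apart from its group, so that run does not speak for the libraries here that did. Identifiers printed are the 2 members highest in well-watered roots, the 2 with the largest lower bound over drought roots, and the 2 largest fitted rises and falls between drought roots and cultures; other members are given by length, as examples or extremes chosen after their values were seen. Alternatives were DESeq2 1.42.0, limma 3.58.1 (voom), other scalings, filters and limits, unique gene reads, RPKM, thinning to 869998 reads, a joint fit, a replicate block and leaving out each library.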

Additional observations from a re-analysis of the deposited data

Results flagged for a closer look

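In 8 members every well-watered library lay above, and every drought library below, every culture, so the root groups departed from the cultures in opposite directions. The rule fixed the well-watered side of this. It did not set drought roots against cultures, but it required the well-watered mean to be at least 6 times the drought mean. The drought side is therefore not independent of the rule. The opposite departures were not tested as such. The 8 are 8.99% of the members. Of all 2119 models with every well-watered library above every culture, 7.6% had every drought library below. The members' share is near that background, but those models were not held to the rule's limit on the drought mean. Culture means of the 8 ran from 4.91 to 1240 CPM and drought means from 0.739 to 594 CPM. By edgeR (adjusted p under 0.05), 4 of the 8 were called lower in drought roots than in cultures: jgi|Tercla1|1273874|, jgi|Tercla1|815395|, jgi|Tercla1|1089175| and jgi|Tercla1|1180392|. Of all 9001 models tested, 21.8% were called lower. The 8 were picked for lying lower under drought in these same libraries, so the calls are no further evidence. Only 19.1% of the reads of jgi|Tercla1|1180392| were unique to it.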

How the results depend on the processing

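The number of members was 160 at a 4-fold and 42 at a 10-fold limit. It stayed within 1.5 times of 89 under all other alternatives run, at 109 on TMM-scaled and 115 on DESeq2-scaled libraries (all 89 included in each), 85 on RPKM (80 shared), 89 after thinning (81 shared), 81 to 105 without single libraries, and 101 (74 shared) without well-watered replicate 1 and drought replicate 2 together, an alternative chosen after seeing the data. Scaling by total counts in place of TMM moved the median log2 fold change of all models between well-watered roots and cultures from -0.11 to -0.31. Between drought roots and cultures, members called numbered 29 of 69 tested and became 49 of 89 in the joint fit of 9 libraries and 20 to 59 of 77 to 85 without single libraries; those higher numbered 25 and became 44 and 17 to 53, the most without drought replicate 2, where calls over all models also rose, to 28.6% higher and 31.6% lower. The cause was not tested. In the joint fit, 1788 of all 8690 models were called higher and 1670 lower in drought roots than in cultures. Without the 2 most abundant members the share of fungal reads in well-watered roots was 3.49%. With the replicate block, 23 members were called between drought roots and cultures, where 1473 of all 9001 models were called higher and 1552 lower. Between drought and well-watered roots it was 66, with 663 of all 8029 models called higher and 672 lower. Between well-watered roots and cultures it was 89, with 1891 of all 8919 models called higher and 1963 lower. The rule used both contrasts with well-watered roots, so those counts are no further evidence. Same-numbered libraries did not deviate together (correlations of deviations -0.09 to 0.10 over 8690 models), so the numbers were not taken to pair the samples. Depth limits the well-watered libraries most, where 1 read is 0.612 to 1.15 CPM.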
